A study of Mus musculus with 14 samples.

Results

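Natriuretic peptide receptors are the membrane proteins through which cardiac and vessel-derived natriuretic peptides act on fat, and 3 genes encode them, Npr1, Npr2 and Npr3. All probe sets annotated to these 3 genes, of 12393 genes with a named probe set, were taken, which gave 5 of the 22690 probe sets in the table: 1 for Npr1 (1449160_at), 1 for Npr2 (1427191_at) and 3 for Npr3 (1435184_at, 1448024_at and 1450286_at). The genes were chosen by their signals in these same groups, with the 3 comparisons between groups known. Their levels are therefore given as a description, without a p. Receptor calls of the fit over all probe sets are given beside the share of all probe sets called. How they depend on the processing is given with them and at the end. Nothing is read from the receptor calls.

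Npr1 (also called NPR-A or GC-A) binds atrial and B-type natriuretic peptide, and Npr2 (NPR-B or GC-B) binds C-type natriuretic peptide. Both are guanylyl cyclases, which answer the peptide by making cyclic GMP inside the cell. Npr3 (NPR-C, the clearance receptor) has no cyclase domain. It takes up the peptides and removes them, and it couples to inhibitory G proteins. In human fat cells cyclic GMP activates a protein kinase that promotes lipolysis, and in rodent fat this response is known to be weak and to be held back by the clearance receptor.

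RNA was measured in epididymal fat, a white depot beside the epididymis, of 14 mice of the ICR strain, aged 3 weeks and all labelled male, each on 1 Affymetrix array. The UC group (n = 5) had a food restriction of 50% in utero and was fed ad libitum during suckling. In the UU group (n = 4) intake was restricted by as much in utero and again while suckling. The CC group (n = 5) was fed ad libitum in both periods. Litters are not given in the labels, so p-values measure the spread between these samples. The arrays were scaled by the authors to a trimmed mean signal of 1500.5 to 1500.6, and a signal below is in these linear units.

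Some arrays stood apart. UC replicate 5 and CC replicate 2, both labelled male, had Xist signals of 9137 and 14480, against at most 80.1 in the other 12 arrays, and their Y-linked Eif2s3y signals were 7.9 and 58.6, against at least 1235 elsewhere. Ucp1, the uncoupling protein of brown fat, had signals of 17041 in UC replicate 5 and 8935 in CC replicate 2. UC replicates 2 and 5 and CC replicates 2 and 4 were low in transcripts of epididymal epithelium, with mean marker levels of 7.14 to 8.07 on the log2 scale, against 11.85 to 14.04 in the other 10. The log2 ratio of 3' over 5' signal of Gapdh and Actb, a sign of RNA quality, was highest in UU replicate 3 (2.10) and in UC replicates 1 (1.63) and 4 (1.60). Adipoq, the adiponectin gene that defines fat cells, had signals of 25263 to 88737 in the 14 arrays. UC replicate 2 was high in Alb, the albumin gene of liver (25660, against at most 3190 elsewhere), and CC replicates 2 and 5 in skeletal muscle markers (mean log2 levels of 11.34 and 11.37, against at most 9.15).

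The genes' start regions are shown first because they place the 3 receptors in the genome. Each is the stretch of 250 bases before 1 start of the gene in RefSeq (GRCm38.p6), with CG dinucleotides in capitals. RefSeq's bounds of each gene reach upstream of that start, and the transcript it belongs to is not named here. Npr1 is at chr3:90465867-90466116 on the minus strand, Npr2 at chr4:43631685-43631934 on the plus strand and Npr3 at chr15:11907372-11907621 on the minus strand.
Npr1: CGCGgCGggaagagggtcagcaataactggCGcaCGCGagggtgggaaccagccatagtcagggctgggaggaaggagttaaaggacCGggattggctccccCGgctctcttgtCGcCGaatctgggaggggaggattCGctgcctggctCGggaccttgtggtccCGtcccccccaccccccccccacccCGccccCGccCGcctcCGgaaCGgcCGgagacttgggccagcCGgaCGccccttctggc
Npr2: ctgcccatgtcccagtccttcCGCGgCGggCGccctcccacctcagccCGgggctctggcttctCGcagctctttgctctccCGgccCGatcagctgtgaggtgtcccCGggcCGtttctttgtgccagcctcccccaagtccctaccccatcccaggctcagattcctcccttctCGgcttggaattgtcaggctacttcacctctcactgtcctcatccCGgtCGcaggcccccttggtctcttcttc
Npr3: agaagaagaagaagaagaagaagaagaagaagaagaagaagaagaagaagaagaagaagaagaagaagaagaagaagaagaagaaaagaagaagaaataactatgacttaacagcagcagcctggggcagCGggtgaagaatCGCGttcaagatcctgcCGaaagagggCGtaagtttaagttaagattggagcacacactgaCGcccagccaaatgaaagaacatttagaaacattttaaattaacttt
The Npr1 and Npr2 stretches were rich in G and C (70.4% and 64.4%), with 21 and 13 CG dinucleotides. The Npr3 stretch had 38.8% G and C and 6 CG dinucleotides, and opened with a run of AGA repeats of 84 bases. Of 32851 stretches of the same length in the table, 91.2% had a lower G and C content than Npr1, 81.6% than Npr2 and 9.7% than Npr3. A search on both strands for AGGTCA (a nuclear receptor half-site, in 14% of all stretches), TTGCNNAA (a C/EBP motif, in 9.56%), CACGTG (in 6.02%) and TATAAA (in 12.4%) found none in the 3 stretches. GGGCGG, a GC box present in 32.7% of stretches, was found 2 times in that of Npr1 and not in the others.

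Npr3, the clearance receptor, was the receptor whose level set the UU mice apart. Its brightest probe set, 1435184_at, had signals of 5637, 11158, 8709, 13501 and 11372 in UC replicates 1 to 5. In UU replicates 1 to 4 it had 1169, 3457, 2341 and 4473. In CC replicates 1 to 5 it had 8142, 6359, 8783, 15598 and 5728. All 4 UU arrays thus lay below each of the other 10, and the UC and CC arrays overlapped across most of their range. The means were 10075 ± 3007 in UC, 2860 ± 1424 in UU and 8922 ± 3936 in CC (SD). On the log2(signal + 32) scale the difference was -1.70 ± 0.37 (SE) for UU over CC, 3.24-fold lower in UU. It was 1.91 ± 0.37 for UC over UU, a fold of 3.75, and 0.21 ± 0.35 for UC over CC, less than its standard error.

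**Figure D1:**
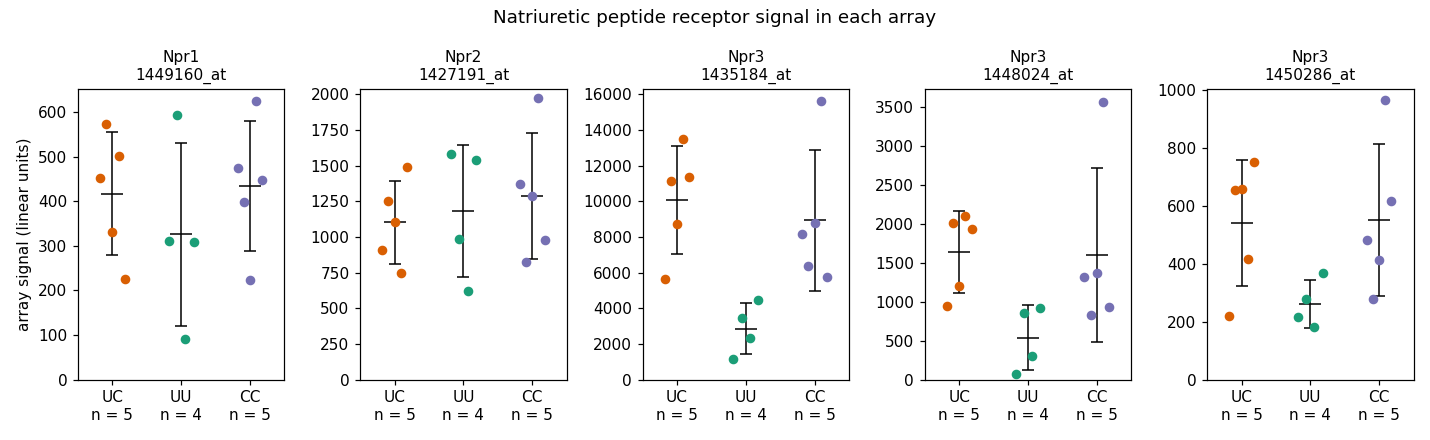
Signal of each receptor probe set (linear array units, a separate axis for each panel) in every array of UC, UU and CC, with the group mean and SD as a bar. The 4 UU arrays lie between 1169 and 4473 for Npr3 1435184_at, below all UC and CC arrays, while the groups overlap for Npr1 and Npr2.

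The second Npr3 probe set, 1448024_at, ran the same way. Its signals were 946.4, 2016, 1198, 2096 and 1930 in UC replicates 1 to 5, 76.7, 859.8, 297.1 and 915.8 in UU replicates 1 to 4, and 1311, 834.7, 1365, 3562 and 938.2 in CC replicates 1 to 5. The UU arrays were all below the UC arrays, and 2 of the 4 were below every CC array. The log2 difference was -1.76 ± 0.55 for UU over CC, 1.93 ± 0.55 for UC over UU and 0.17 ± 0.52 for UC over CC. It depended on UU replicate 1, the lowest array: without it the values were -1.12 for UU over CC and 1.29 for UC over UU.

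The third Npr3 probe set, 1450286_at, was dim, among the 40% of probe sets with the lowest mean signal that the fit left out, and showed a smaller difference. Its signals ran from 219.7 to 751.3 in UC (median 652.7), from 180.8 to 367.7 in UU (median 246.7) and from 278.5 to 964.6 in CC (median 481.2). UC replicate 1 and CC replicate 2 lay within the UU range, and 3 of the 4 UU arrays were below every CC array. In a fit of all probe sets the log2 difference was -0.92 ± 0.39 for UU over CC, 0.90 ± 0.39 for UC over UU and -0.02 ± 0.36 for UC over CC. In a fit that took the 3'/5' ratio in as a term the value for UU over CC was -0.52, and without the 4 arrays low in epididymal markers that for UC over UU was 0.59. Across the 14 arrays the brightest Npr3 probe set had a Pearson r of 0.97 with 1448024_at and of 0.78 with 1450286_at, and of 0.96 and 0.62 for deviations from the group means. These probe sets share the RNA of each array, so their correlations describe agreement on a gene and not replication.

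Npr1, the receptor for atrial natriuretic peptide, had a dim probe set in this fat, also below the signal filter. Its signals were 451.3, 574, 331.6, 501.9 and 226.2 in UC replicates 1 to 5, 310.6, 592.3, 91.2 and 309.2 in UU replicates 1 to 4, and 475.4, 398.8, 222.2, 625.6 and 448.1 in CC replicates 1 to 5. The 3 groups overlapped. The means were 417 ± 139 in UC, 326 ± 205 in UU and 434 ± 146 in CC (SD), and the log2 difference was -0.53 ± 0.42 for UU over CC, 0.48 ± 0.42 for UC over UU and -0.05 ± 0.40 for UC over CC. UU replicate 3 held the lowest value and also the highest 3'/5' ratio. Without it the log2 difference was -0.09 for UU over CC and 0.04 for UC over UU, and without the 3 arrays of highest ratio UC over UU gave -0.12. Without UU replicate 2, the highest UU array, they were -0.87 and 0.82. With array weights they were -0.11 and 0.19, and with a term for the 3'/5' ratio UU over CC gave -0.17.

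Npr2, the receptor for C-type natriuretic peptide, gave nearly the same mean in the 3 groups. Its signals were 909.8, 1254, 1108, 745.6 and 1492 in UC replicates 1 to 5, 1580, 988.2, 617.9 and 1543 in UU replicates 1 to 4, and 1372, 824.3, 1287, 1973 and 977.4 in CC replicates 1 to 5. High and low arrays occurred in each group, with means of 1102 ± 291 in UC, 1182 ± 463 in UU and 1287 ± 444 in CC (SD). The log2 difference was -0.15 ± 0.30 for UU over CC, -0.05 ± 0.30 for UC over UU and -0.19 ± 0.28 for UC over CC. Each was smaller than its standard error, and the sign for UC over UU turned when arrays were centred on their medians (0.09) or quantile normalized (0.04).

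**Figure D2:**
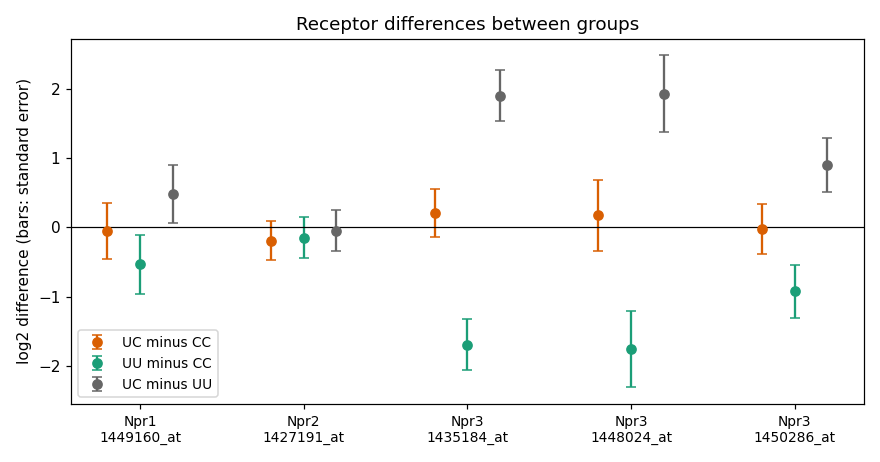
Log2 difference (vertical axis, on log2(signal + 32)) with its standard error for each receptor probe set in the 3 contrasts. The 2 brighter Npr3 probe sets lie at -1.70 and -1.76 for UU minus CC and at 1.91 and 1.93 for UC minus UU, while Npr1 and Npr2 lie between -0.53 and 0.48.

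The clearance receptor was also set against the cyclase receptors. Npr2 had nearly the same mean in the 3 groups, so Npr3 minus Npr2 mainly restates the Npr3 values on which the genes were chosen. The log2 signal of Npr3 (1435184_at) minus that of Npr2 averaged 3.13 ± 0.58 in UC, 1.18 ± 1.08 in UU and 2.73 ± 0.20 in CC (SD). It ran from 2.59 to 4.12 in UC, from -0.42 to 1.87 in UU and from 2.51 to 2.96 in CC, so the UU arrays did not overlap the others. The lowest value was that of UU replicate 1, and the other UU arrays ran from 1.52 to 1.87. For Npr3 minus Npr1 the averages were 4.50 ± 0.70 in UC, 3.07 ± 1.12 in UU and 4.24 ± 0.61 in CC. These ranges overlapped, from 3.55 to 5.46 in UC, 1.81 to 4.27 in UU and 3.58 to 5.12 in CC. Probe sets differ in how brightly they report a transcript, so the shift between groups can be read and the size of the difference itself cannot.

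Against the whole table, 3 of the 5 receptor probe sets passed the signal filter, Npr2 and the 2 brighter ones of Npr3. In the limma fit of all 12228 probe sets above the filter, 0 of these 3 were called at an adjusted threshold of 0.05 for UC over CC, where 0% of all probe sets were called, and 0 for UU over CC, where 0% were called. At an unadjusted p under 0.05, limma gave 1125 probe sets for UC over CC, 1968 for UU over CC and 2012 for UC over UU. For UC over UU, 1 of the 3 was called higher, Npr3 1435184_at, beside 0.491% of all probe sets called higher and 0.54% called in either direction. The genes were chosen on these contrasts, so the count has no weight as a test. The call was lost when any of 8 of the 14 arrays was left out (UC replicates 2, 4 and 5, UU replicates 1, 2 and 3, and CC replicates 1 and 3), with log2 differences of 1.54 to 2.17 over all 14 omissions. It was also lost without the 2 arrays with Xist signal (log2 difference 1.85) and without the 4 arrays low in epididymal markers (1.76). For UU over CC these values were -1.80 and -1.53. The Npr3 difference of UU over CC ranked 27th from the lowest of 12228 for 1435184_at and 24th for 1448024_at. Of the 3 receptor probe sets, 1 had every UU array below every CC array (3.7% of all probe sets), 2 had every UU array below every UC array (2.99%) and 1 had both (1.11%). None had every UC array above every CC array (0.957%) or below it (0.891%).

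Levels of other cell types' transcripts moved with these groups too. Adipocyte markers, of which 7 of the 10 listed genes were measured, were on average lower in UU than in CC for 7 of 7 genes, and none was at 0. Their summed signal ran from 176906 to 323038 in UC, from 115015 to 196180 in UU and from 169179 to 286166 in CC. Their mean log2 level was 14.02 ± 0.38 in UC, 12.93 ± 0.58 in UU and 13.92 ± 0.33 in CC (SD), with each UU array below every other array. Fabp4, the fatty acid binding protein of fat cells, had signals of 127253 ± 34800 in UC, 105700 ± 24031 in UU and 117414 ± 18238 in CC, and Adipoq had 71999 ± 17263 in UC, 39696 ± 9670 in UU and 67132 ± 15531 in CC. In bulk tissue, fewer cells of a type and less RNA per cell cannot be told apart.

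Npr3 followed the adipocyte level from array to array. Over the 14 arrays the Pearson r of Npr3 with the adipocyte level was 0.94 and the Spearman rho 0.94. This is the highest of 30 receptor and marker list pairs, which are given without a p because the receptors were chosen on the same values and the UU arrays were low in both. It was 0.88 without UU replicates 1 and 3, which had the lowest adipocyte levels, and 0.85 for deviations from the group means. Within the 10 UC and CC arrays, where the UU group plays no part, it was 0.85. Within the 10 arrays high in epididymal markers it was 0.94. On the log2 scale, Npr3 minus the adipocyte level averaged -0.78 ± 0.26 in UC, -1.59 ± 0.46 in UU and -0.88 ± 0.33 in CC (SD), with ranges of -1.07 to -0.45 in UC, -2.19 to -1.22 in UU and -1.28 to -0.50 in CC. Every UU array was thus below every UC array, while UU and CC overlapped. With the adipocyte level as a covariate in the fit, an alternative added after this relation was seen, the log2 difference of Npr3 1435184_at was -0.49 ± 0.31 (SE) for UU over CC and 0.57 ± 0.32 for UC over UU. For 1448024_at it was 0.14 ± 0.44 and -0.17 ± 0.47. Since each UU array was below all others in adipocyte level, the covariate and the group cannot be fully told apart.

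**Figure D3:**
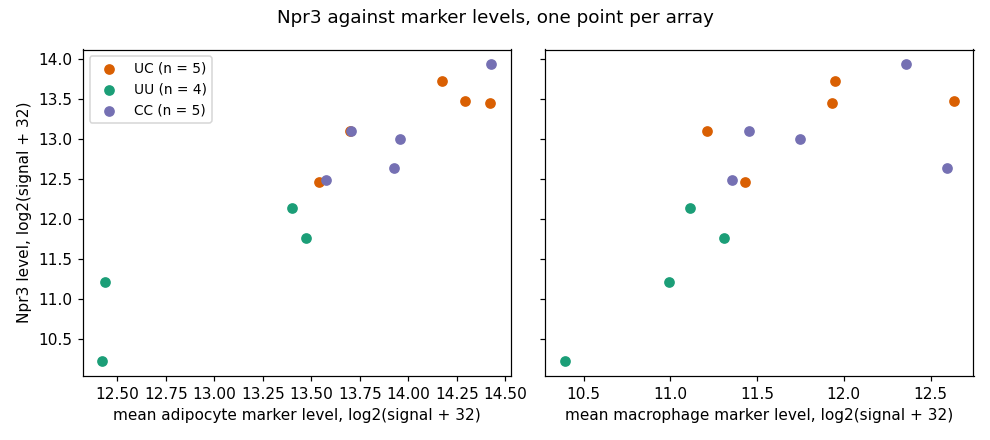
Npr3 level (1435184_at, log2(signal + 32)) against the mean adipocyte marker level and the mean macrophage marker level of the same array, one point per array for UC, UU and CC. Npr3 rises with the adipocyte level across all 14 arrays (r = 0.94), and the 4 UU arrays form the low end.

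Macrophage markers also varied with Npr3. Of 12 listed genes 12 were measured, 10 were lower on average in UU than in CC, and none was at 0. Their summed signal ran from 35725 to 91199 in UC, from 19352 to 37186 in UU and from 37718 to 98681 in CC. Csf1r, the receptor of the macrophage growth factor, had signals of 28373 ± 9352 in UC, 11873 ± 4838 in UU and 21781 ± 9949 in CC, and Lyz2, a lysozyme gene of phagocytes that closely resembles Lyz1, had 7363 ± 4694 in UC, 3087 ± 1278 in UU and 12373 ± 8816 in CC. The Pearson r of Npr3 with the macrophage level was 0.78 and the Spearman rho 0.81. The r was 0.91 without UC replicate 5 and CC replicate 2, 0.67 without UU replicate 1, 0.56 for deviations from the group means and 0.44 within the 10 UC and CC arrays. The part of macrophage RNA in the Npr3 result was not tested.

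The other 28 receptor and marker list pairs were weaker. For Npr3 they included r = 0.63 with endothelial markers, -0.59 with smooth muscle and pericyte markers and -0.55 with general epithelial markers. The smooth muscle relation was -0.91 within the 10 UC and CC arrays, where Npr3 had 0.85 with adipocyte and 0.44 with macrophage markers. For deviations from the group means it was -0.77, beside 0.85 and 0.56. Without CC replicate 4 and UC replicate 2 it was -0.45. Endothelial markers were lower on average in UU than in CC for 11 of 11 genes, with mean log2 levels of 10.81 in UC, 10.43 in UU and 10.96 in CC. Fibroblast and preadipocyte markers were lower for 9 of 11 genes. The part of either list in the Npr3 result was not tested. General epithelial markers were higher on average in UU than in CC for 12 of 12 genes, with summed signals of 7732 to 56885 in UC, 63608 to 83402 in UU and 7096 to 66482 in CC. None was at 0, and their part in the Npr3 result was not tested. For Npr1 the largest were 0.59 with adipocyte and 0.50 with endothelial markers. These fell to 0.22 without UU replicates 1 and 3, and to -0.14 without CC replicate 4 and UU replicate 3. For Npr2 the largest was 0.58 with endothelial markers, and 0.10 without CC replicate 4 and UU replicate 3.

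**Figure D4:**
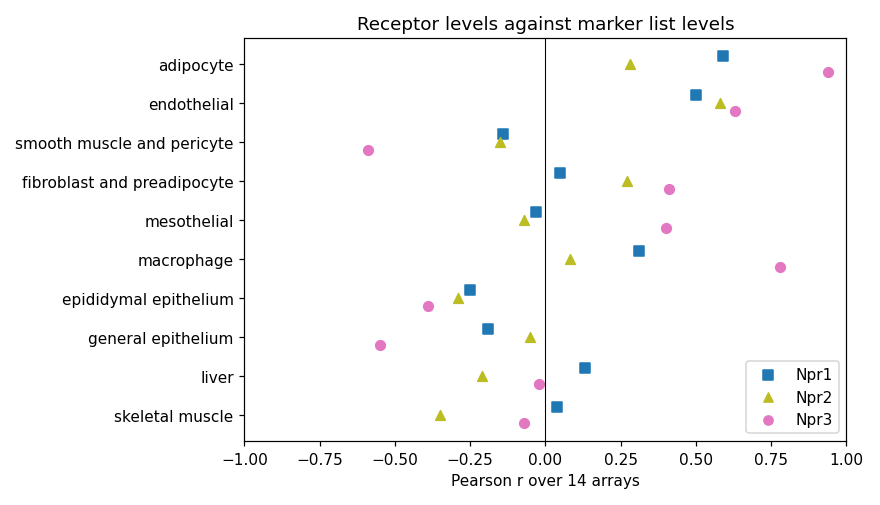
Pearson r over 14 arrays (horizontal axis) of each receptor's level with the mean level of each marker list, one symbol per pair. Npr3 stands at 0.94 with adipocyte and 0.78 with macrophage markers, and the highest pairs of Npr1 and Npr2 at 0.59 and 0.58.

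The genes whose pattern was most like each receptor's were found among the brightest probe sets of 8171 or 8172 genes above the filter, by Pearson r over the 14 arrays, and as the highest of so many values they carry no p. For Npr3 they were Anxa1, an annexin (r = 0.94), Emp1, a membrane protein gene (0.94), Dgat2, which makes triglyceride from diglyceride (0.94), Serpina1b, a protease inhibitor gene with near-identical copies that its probe set may not separate (0.94), and Prelp, a matrix proteoglycan gene (0.93). Without UU replicates 1 and 3 these values ran from 0.85 to 0.91, and for deviations from the group means from 0.82 to 0.87. Dgat2 had mean signals of 34860 in UC, 11490 in UU and 24830 in CC, and Prelp had 5740 in UC, 2123 in UU and 7280 in CC. For Npr1 they were Zfp423, a transcription factor gene of fat precursors (0.88), Vps4a (0.88), Sh3glb2 (0.87), Sox18, a transcription factor gene of endothelium (0.85), and Palm (0.85), and without CC replicate 3 and UU replicate 3 they ran from 0.52 to 0.84. For Npr2 they were Ccdc91 (0.90), Sox3 (0.88), Col18a1, a basement membrane collagen gene (0.87), Kctd10 (0.87) and Daxx (0.86), and without CC replicate 4 and UU replicate 3 they ran from 0.76 to 0.84.

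Receptor signalling depends on the peptides and the enzymes around them, and 7 lists named 80 such genes. A probe set was annotated for 64 of them, and 47 of these passed the signal filter. Genes without an annotated probe set, Pde5a, Pde3b and Adrb3 among them, were not analysed here. The lists were written with earlier results of these data known, so their calls and counts are not independent of those results. In the limma fit 0 of the 47 were called for UC over CC and 0 for UU over CC. At an unadjusted p under 0.05 limma gave 3 of the 47 (6.38%, beside 9.2% of all probe sets) for UC over CC. It gave 9 (19.1%, beside 16.1%) for UU over CC and 7 (14.9%, beside 16.5%) for UC over UU. At an adjusted threshold of 0.05, 1 was called higher and 0 lower for UC over UU, against 0.491% and 0.0491% of all probe sets.

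Of the peptides and their processing enzymes none was called in any contrast. Nppa, the atrial peptide gene, had dim signals of 125.5 to 425.9 in UC, 83.1 to 315.6 in UU and 92.5 to 305.7 in CC. Nppb, the B-type peptide gene, had means of 761 ± 272 in UC, 866 ± 295 in UU and 699 ± 103 in CC (SD), with log2 differences of 0.23 ± 0.28 for UU over CC, -0.17 ± 0.28 for UC over UU and 0.06 ± 0.27 for UC over CC. Nppc, the C-type peptide gene, ran from 28.8 to 515.4 in UC, from 42.5 to 294.8 in UU and from 44.6 to 317.4 in CC. Corin, the protease that activates the atrial peptide, had at most 163.3 in UC, 269.2 in UU and 247.3 in CC, also below the filter. All these groups overlapped. Furin, a protease that processes peptide precursors, had log2 differences of 0.41 ± 0.17 for UU over CC, -0.14 ± 0.17 for UC over UU and 0.28 ± 0.16 for UC over CC. Ide, a peptide-degrading protease, had -0.21 ± 0.21 for UU over CC and -0.23 ± 0.20 for UC over CC. Its dimmer probe sets differed in sign, with 0.25, 0.09 and -0.70 for UU over CC and -0.08, 0.05 and -0.77 for UC over CC.

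Of the tested genes of cyclic GMP synthesis and breakdown, and of the tested effectors of cyclic GMP, none was called. Prkg1, the cyclic GMP-dependent kinase, was below the filter, with signals of 66 to 289.2 in UC, 42.9 to 276.4 in UU and 37.1 to 516.6 in CC. Pde2a, a phosphodiesterase that breaks down cyclic GMP, gave -0.73 ± 0.30 for UU over CC (limma adjusted p = 0.259), 0.24 ± 0.30 for UC over UU and -0.48 ± 0.28 for UC over CC. Gucy1a1, a subunit of the soluble guanylyl cyclase, gave -0.47 ± 0.25 for UC over CC and -0.31 ± 0.26 for UC over UU, where its dimmer probe set gave 0.001 and 0.38. Pde1b, another phosphodiesterase, gave -0.49 ± 0.47 for UU over CC. Vasp, an actin regulator and kinase substrate, gave -0.74 ± 0.28 for UU over CC and -0.62 ± 0.26 for UC over CC, with limma adjusted p of 0.222 and 0.517. Its signals of 887.4 to 1622 in UC lay below those of 1648 to 2243 in CC, as in 0.891% of all probe sets. Pde10a, a dim phosphodiesterase gene singled out after its values were seen, was below the filter and not tested. It had signals of 51.1 to 206.9 in UC, 125.8 to 420.7 in UU and 19.4 to 78 in CC. The share of all probe sets with every UU array above every CC array was not counted. For UU over CC its other probe sets gave log2 differences of -0.27 and 0.05. Rgs2, a regulator of G protein signalling, gave 0.95 ± 0.51 for UU over CC and -1.41 ± 0.51 for UC over UU. Atf2, a stress-responsive transcription factor gene, gave 0.22 ± 0.14 for UC over CC and 0.13 ± 0.14 for UC over UU. Its dimmer probe sets had the other sign, -0.23, -0.19 and -0.14 for UC over CC and -0.02, -0.41 and -0.33 for UC over UU. The median log2 difference of the 6 tested effectors was 0.25 for UU over CC, beside 0.03 over all probe sets, with values from -0.74 to 0.95. Other lists had medians of -0.19 (cyclic GMP synthesis and breakdown), 0.21 (peptides and processing) and 0.065 (inhibitory G protein arm). The catecholamine and cAMP list had -0.33 and the thermogenic list -0.43.

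For the inhibitory G protein arm that Npr3 uses, 9 of 10 genes passed the filter and none was called. Gnai1, an inhibitory G protein subunit, gave -0.38 ± 0.21 for UU over CC and 0.58 ± 0.21 for UC over UU. Gnai2 gave 0.40 ± 0.20 for UC over CC, where its dimmer probe set gave -0.10. Plcb3, a phospholipase of the same arm, gave -1.12 ± 0.40 for UC over CC (limma adjusted p = 0.497), and Adcy7, an adenylyl cyclase, 0.55 ± 0.26 for UU over CC and -0.47 ± 0.26 for UC over UU. In the catecholamine and cAMP arm, with 5 of 13 genes tested, Gnas, the stimulatory G protein subunit, gave -0.46 ± 0.16 for UU over CC, where its 3 dimmer probe sets gave -0.55, 0.47 and 0.20. Those 3 had mean signals of 52.4, 35.4 and 484.1, below the filter, beside 27543 for the brightest. The kinase subunits Prkaca and Prkacb gave -0.48 ± 0.19 and -0.26 ± 0.18 for UC over CC. Prkacb gave -0.37 ± 0.19 for UC over UU, and Prkar1a, a regulatory subunit, -0.31 ± 0.15 for UU over CC and 0.28 ± 0.15 for UC over UU.

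Genes of lipolysis and the lipid droplet, the process that cyclic GMP promotes in human fat cells, held the 1 call. Mgll, the monoglyceride lipase that completes lipolysis, had signals of 16362, 23405, 15343, 27893 and 20743 in UC replicates 1 to 5 and of 6566, 13564, 6094 and 9676 in UU replicates 1 to 4. Every UU array was below every UC array, as in 2.99% of all probe sets. In CC replicates 1 to 5 Mgll had 13908, 17208, 14349, 20347 and 14371. It was higher in UC than in UU by 1.25 ± 0.24 on the log2 scale (SE, limma adjusted p = 0.0395), and its 3 dimmer probe sets gave 1.21, 0.87 and 0.56. The call was lost when any of 9 of the 14 arrays was left out, UC replicates 2, 4 and 5, UU replicates 1, 3 and 4 and CC replicates 1, 3 and 5. Of the 9 tested genes of the list 9 were above 0 for UC over UU, with a median log2 difference of 0.82 beside -0.06 over all probe sets, and 9 were below 0 for UU over CC (median -0.75, beside 0.03). Plin4, a droplet coat protein, gave 0.98 ± 0.25 for UC over UU (adjusted p = 0.0943), and Cidec, another, -1.25 ± 0.36 for UU over CC (adjusted p = 0.151). Adipocyte markers ran the same way, 7 of 7 above 0 for UC over UU (level difference 1.09) and 7 of 7 below 0 for UU over CC (-0.98), and 3 of the 9 genes, Cidec, Fabp4 and Lipe, are themselves in that list. With the adipocyte level as a covariate, 0 of the 47 genes were called for UC over UU. Lipe, the hormone-sensitive lipase, gave -1.11 ± 0.37 for UU over CC, 0.82 ± 0.37 for UC over UU and -0.28 ± 0.35 for UC over CC. For UC over CC the largest of the list were Mgll (0.35 ± 0.23) and Abhd5, a lipase coactivator (0.29 ± 0.26). There the dimmer Mgll probe sets gave 0.71, 0.02 and -0.30.

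**Figure D5:**
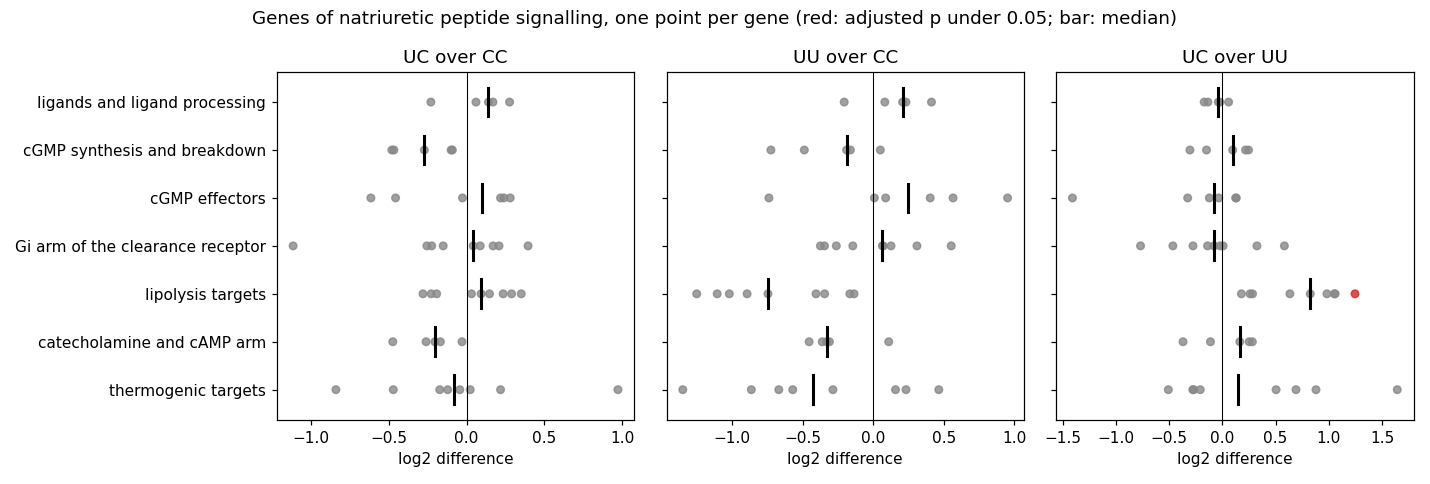
Log2 difference (horizontal axis) of each tested gene in 7 lists of natriuretic peptide signalling for the 3 contrasts, one point per gene, red at an adjusted p under 0.05, with the list's median as a bar. Mgll among the lipolysis targets is the 1 red point, and that list has medians of -0.75 for UU over CC and 0.82 for UC over UU.

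Thermogenic genes, which cyclic GMP also raises in fat cells, held no call among 8 tested. Dio2, the enzyme that activates thyroid hormone, gave 0.46 ± 0.28 for UU over CC, where its 2 dimmer probe sets differed in sign, and Cox7a1, a muscle and brown fat subunit of respiratory complex IV, gave -0.86 ± 0.71. Cox8b, another such subunit, gave -0.84 ± 0.80 for UC over CC, Ppargc1b, a coactivator of mitochondrial genes, 0.22 ± 0.24 for UC over CC and 0.50 ± 0.26 for UC over UU, and Tfam, a mitochondrial transcription factor gene, -0.28 ± 0.15 for UC over UU. Cox8b varied widely within groups, with SDs of 3218 in UC and 4500 in CC. Its highest signals were in the 2 arrays with Xist signal, CC replicate 2 (11258) and UC replicate 5 (7788). Cox7a1 was highest in the same arrays (4934 and 4267).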

How the data were processed

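The members and gene lists were chosen with earlier results of these data known. RNA of epididymal fat from 14 mice was measured on single-channel Affymetrix arrays. Per the submitters' processing notes, the authors used GCOS 1.3 and MAS5, and the deposited intensity values are linear. Detection calls, scan dates and litters were not used here, and the number of arrays limits the precision.

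Of 22690 probe sets, 20380 had 1 gene symbol in the platform annotation, 691 several, 1555 none and 64 were controls. Older symbols were replaced by those RefSeq (GRCm38.p6) gives for the same Entrez identifier, and promoter stretches come from RefSeq too. Values were transformed as log2(value + 32). Probe sets below the 40th percentile of mean signal (511.6) were left out, leaving 12228. All 14 arrays were fitted together with limma 3.58.1 under R 4.3.3, which left 11 residual degrees of freedom, and variances were moderated along a mean-variance trend; p-values had Benjamini-Hochberg adjustment over all probe sets. Differences of receptor probe sets below the filter come from the same model without it. A gene other than the receptors was represented by its brightest probe set. A marker level is the mean log2 value of the list's genes above the filter.

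Named genes were all receptor probe sets, the 2 of smallest p in each pathway list and contrast, a few fixed genes, the 5 most like each receptor and the 2 brightest of a marker list. Permutation p-values were computed for receptor and marker correlations but are not given, since the receptors were chosen on the same values. Arrays within groups correlated at 0.872 to 0.949, so none was a duplicate of another in its group. Arrays of different groups were not examined for this. The fit was tested on simulated data. Alternatives covered the pseudocount (1, 128), the filter, normalization, the variance model and the choice of probe set, array weights, fits of 2 groups, the replicate number as a block, covariates, a threshold of 0.1 and arrays left out. Figures were drawn with matplotlib 3.10.9.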

Additional observations from a re-analysis of the deposited data

Results flagged for a closer look

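Dixon's test found 0 of 15 combinations of receptor probe set and group with an array far from the rest. Over these and the pathway genes together it found 11 of 156, where chance gives about 1 in 20. In UC, replicate 5 was high for Cox7a1 (4267, others 408.5 to 810.4) and Cox8b (7788, others 419.4 to 847.6), replicate 1 for Atf2 (4237, others 3147 to 3417), and replicate 4 was low for Kcnma1 (241.3, others 504.7 to 654.6). In UU, replicate 3 was high for Ppp1cb (34661, others 15695 to 17353) and low for Adcy6 (1874, others 3250 to 3467), and replicate 1 was low for Gucy1a1 (852.6, others 910.5 to 922.4). In CC, replicate 2 was high for Ucp1 (8935, others 18.7 to 60.3) and for Rgs2 (8031, others 1559 to 2071), replicate 4 for Gucy1b1 (1090, others 679.5 to 717.1) and replicate 5 for Ide (3441, others 2169 to 2398).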

How the results depend on the processing

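The log2 differences of the receptors moved by less than 1 residual SD under the alternatives run, except with the adipocyte level as a covariate, added after the data were seen. There they were, for UU over CC, -0.49 for Npr3 1435184_at, 0.14 for 1448024_at, -0.12 for 1450286_at and 0.28 for Npr1, and for UC over UU 0.57, -0.17, 0.003 and -0.42, with -0.56 for Npr2. The brightest Npr3 probe set kept its sign in all alternatives for UU over CC, from -1.96 to -1.33 with single arrays left out, and for UC over UU from 1.54 to 2.17. The count of called probe sets for UU over CC, 0 in the fit reported, was 10 at an adjusted p of 0.1, 20 with array weights, 5 with the replicate block, 1 without the arrays with Xist signal, 1 without those low in epididymal markers, 6 with the epididymal level as covariate, and 0 to 6 with single arrays left out. For UC over CC it was 1 without the arrays low in epididymal markers. For UC over UU, 66 in the fit reported, it was 183 at an adjusted p of 0.1, 1.3e+02 with median centring, 154 with the 3'/5' ratio as covariate, 85 with the replicate block, 20 with the epididymal level as covariate, 16 with no filter, 14 with no mean-variance trend, 5 without the arrays of highest 3'/5' ratio, 2 with these groups only, 1 without the arrays with Xist signal, 1 without those low in epididymal markers, 0 with the adipocyte level as covariate, and 0 to 114 with single arrays left out. The pathway call for UC over UU became 2 with median centring or at 0.1. It became 0 with array weights and, like the call of Npr3, 0 with no filter, with no trend, with these groups only, without the arrays of Xist signal, low epididymal markers or highest 3'/5' ratio, and with the epididymal or adipocyte level as covariate. Single arrays left out gave 0 to 1 for either. The replicate block changed no other call. Same-numbered arrays deviated together (r above 0.1) in 6 of 13 pairs, with r from -0.28 to 0.42. This does not settle whether the numbers mark pairs, and they were not used as pairs in the fit reported. Median centring moved the median log2 difference of all probe sets for UC over UU to 0.07 and quantile normalization to -0.01, against -0.06. The causes were not tested. Dim probe sets (Npr1, Npr3 1450286_at, the peptides) limit what can be seen of their genes.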
